A study of Mus musculus with 4 samples.

Results

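Splicing factors and heterogeneous nuclear ribonucleoproteins (hnRNPs) were examined in NIH3T3 cells, an immortalised mouse fibroblast line, before and after induction of the kinase PKR. The members were all probe sets whose only gene symbol in the platform annotation begins with Srsf, Tra2, Snrp, Sf3a, Sf3b, U2af, Prpf or Hnrnp. This rule found 60 probe sets of 45 genes among 13057 probe sets in all, of which 48 lie on the first array type and 12 on the second, marked MB in the sample titles. A further 7 (first type) and 1 (MB type) probe sets matched the rule but carried several symbols, and these were not members. The rule uses no measured value.

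Every culture was of a stable line carrying a wild-type PKR transgene behind a promoter that tetracycline represses. Control cultures were grown in DMEM with 5% FCS and 1 µg/ml tetracycline, and in the induced cultures tetracycline had been withdrawn for 5 h, with no serum content stated. Whether the line is 1 clone, which species the transgene comes from, and whether the arrays of a condition share 1 RNA are not stated in the labels. Per type there was 1 array with tetracycline and 1 after withdrawal, and the types carry different probe sets, so there were no replicates and no p-value was computed.

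An intron is removed by the spliceosome, which assembles from small nuclear ribonucleoproteins (snRNPs). Proteins of the Snrp genes form the Sm ring around the snRNAs or belong to the U1 or U2 particle, and the SF3a and SF3b complexes and U2AF bring U2 to the branch point and the 3' splice site. The Prpf genes encode further spliceosome proteins. SR proteins, with arginine-serine rich domains, bind exons and mostly favour their inclusion, whereas hnRNPs coat nascent transcripts and often oppose it. Several SR and hnRNP genes limit their own mRNA through alternative exons that lead to decay.

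Upstream sequences from RefSeq (GRCm38.p6), the 250 bases before the most upstream listed start, were found for 40 of the 45 genes, and 3 are shown. Tra2b had the largest upward difference above background, Snrpa1 was 1 of the 2 members at least 2-fold lower, and Snrpg holds a full cAMP response element (CRE), a site bound by ATF and CREB proteins. Capitals mark matches on either strand to the CRE letters TGACGTCA, to TGACG within them, to CCAAT and to TGATGNAA, a C/EBP-ATF composite site. The Tra2b stretch is chr16:22266006-22266255 on the minus strand, that of Snrpg chr6:86371290-86371539 and that of Snrpa1 chr7:66060086-66060335, both on the plus strand.
Tra2b: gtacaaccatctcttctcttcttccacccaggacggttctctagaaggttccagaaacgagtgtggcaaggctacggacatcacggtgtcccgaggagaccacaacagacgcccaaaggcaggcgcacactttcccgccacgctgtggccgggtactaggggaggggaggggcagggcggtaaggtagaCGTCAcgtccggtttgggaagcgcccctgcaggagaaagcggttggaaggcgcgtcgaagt
Snrpg: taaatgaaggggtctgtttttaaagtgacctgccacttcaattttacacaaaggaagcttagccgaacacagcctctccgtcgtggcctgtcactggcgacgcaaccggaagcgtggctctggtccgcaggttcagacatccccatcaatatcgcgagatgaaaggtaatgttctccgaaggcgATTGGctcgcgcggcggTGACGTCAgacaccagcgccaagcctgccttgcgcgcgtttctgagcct
Snrpa1: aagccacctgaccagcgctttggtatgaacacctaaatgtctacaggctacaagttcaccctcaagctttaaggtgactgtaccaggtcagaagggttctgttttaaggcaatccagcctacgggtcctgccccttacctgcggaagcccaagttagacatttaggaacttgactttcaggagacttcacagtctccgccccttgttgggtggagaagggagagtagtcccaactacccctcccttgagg

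TGACG was found upstream of 22 of the 40 member genes (55%), against 17.8% of all 27025 upstream sequences of the same length and 25.5% of the 4887 whose genes have a probe set here. It was present for 7 of 9 SR genes (Srsf1, Srsf3, Srsf5, Srsf6, Srsf10, Srsf11 and Tra2b), 7 of 12 hnRNP genes, 5 of 7 Prpf genes, 2 of 7 snRNP genes and 1 of 5 U2-associated genes. The Tra2b stretch holds 1 such match, that of Snrpg 2, both inside its CRE, and that of Snrpa1 none. The full CRE was found for Snrpa and Snrpg only, against 1.60% of all upstream sequences and 2.39% of those of genes on the arrays. TGATGNAA was found for Hnrnpa2b1, which is 2.5% of the members, against 3.53% and 2.31%. CCAAT was found for 19 of 40 members (47.5%), against 34.5% and 35.9%. The median GC content was 58.4% for members, 58.8% for genes on the arrays and 52.0% for all. These are matches of letters, and the TGACG search was added after the longer motifs had been counted.

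The arrays themselves were as follows. The first type held 6523 probe sets and the MB type 6534, without controls. A probe set was called measured above a floor, the 25th percentile of the intensities of a type (130 and 80.0), and a stricter control floor was the 95th percentile of bacterial and yeast control probe sets (281.5 and 340.4). The 3' to 5' intensity ratios of the beta-actin and Gapdh controls, a measure of RNA integrity, were 1.05 and 0.71 with tetracycline and 0.96 and 0.78 after withdrawal on the first type. For the MB arrays they were 0.93 and 0.83 with tetracycline and 0.97 and 0.79 after withdrawal. Fibroblast markers were above the control floor on both arrays in 18 of 21 probe sets, against 2 of 8 for leukocyte, 1 of 7 for epithelial, 0 of 5 for endothelial, 1 of 4 for muscle and 0 of 4 for neuronal markers. Over all probe sets, 3555 of 6523 (first type) and 2738 of 6534 (MB type) were above the control floor on both arrays. Of the fibroblast probe sets measured, 12 of 18 were lower after withdrawal, against 51.1% (first type) and 47.5% (MB type) of all. The median log2 change of these fibroblast probe sets was -0.27. Their part in the results below was not tested. The mouse Eif2ak2 probe set, for the gene of PKR, read 643.3 with tetracycline and 663.6 after withdrawal. It may not detect the transgene and does not check the labels.

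Most members lay well above background. On the first type 46 of 48 were measured on both arrays, against 4402 of 6523 of all probe sets. The median intensity of all probe sets was exceeded by 42 of the 48 with tetracycline and 43 after withdrawal. Of the MB members 11 of 12 were measured on both arrays, against 4360 of 6534 of all, and 10 and 11 exceeded the median of that type. Intensities of different probe sets also depend on their probes, so they do not rank the genes by abundance.

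**Figure D1:**
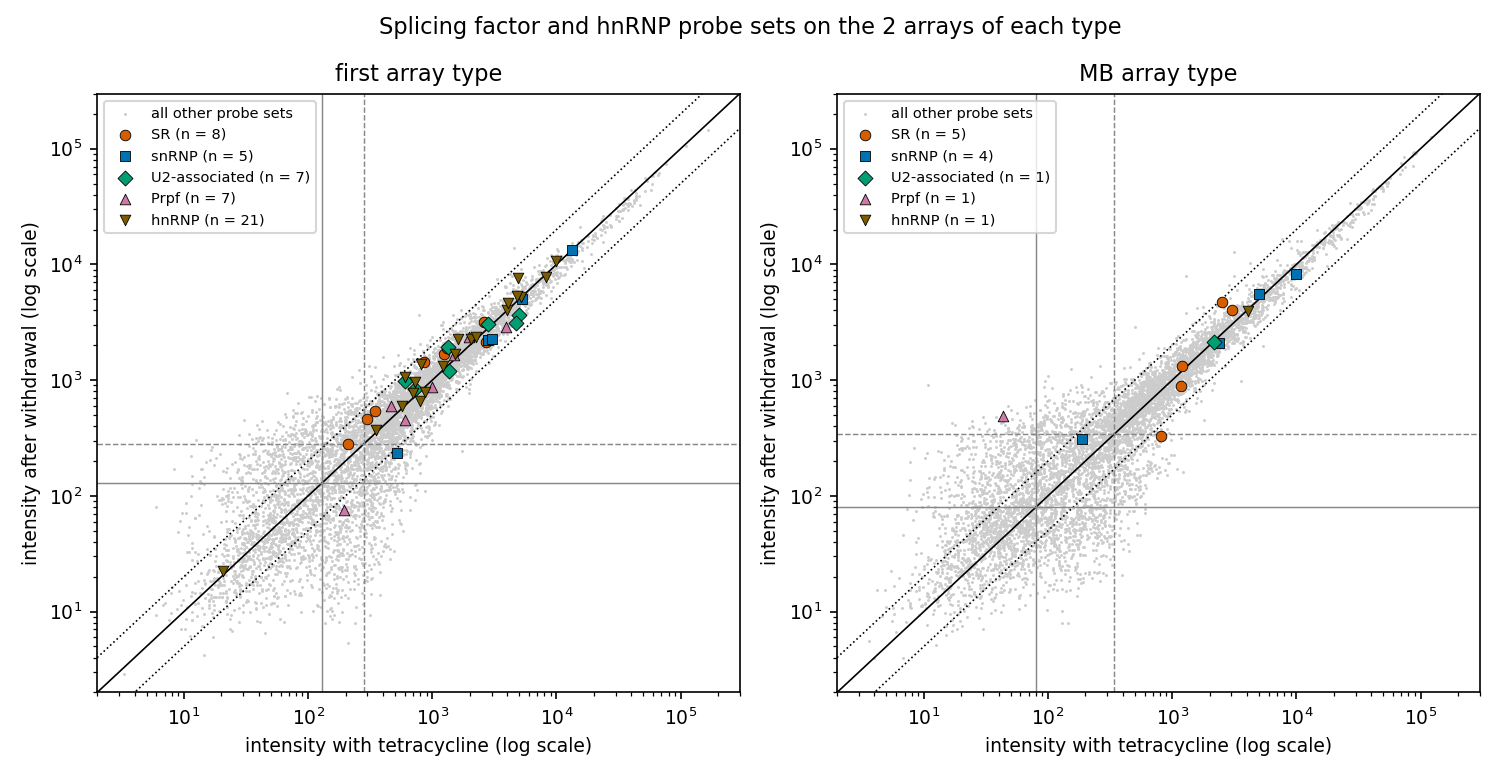
Intensity with tetracycline (x axis) against intensity after withdrawal (y axis), both on log scales, for each probe set of the first (left) and MB (right) array type. Coloured symbols are the 48 and 12 splicing factor and hnRNP probe sets by class and grey points all others. The solid diagonal marks equal intensity, dotted diagonals 2-fold differences, solid grey lines the floor and dashed grey lines the control floor. Most members lie above both floors and between the dotted lines, with 1 Prpf probe set of the MB type far above them at a low level.

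Differences between the conditions were mostly small. In RNA of whole cultures, fewer expressing cells and less RNA per cell cannot be told apart. Changes are given as log2 ratios, withdrawn over tetracycline. Of the 46 members measured on the first type, 0 were at least 2-fold higher, against 4.36% of all 4402 probe sets measured, and 1 was at least 2-fold lower, against 4.02%. Among 11 MB members 0 were at least 2-fold higher, against 8.46% of all 4360, and 1 was lower, against 6.65%. Both lower members, Snrpa1 and a probe set of Srsf1, were below the control floor after withdrawal. The median change of the members was 0.13 on the first type (all probe sets -0.012), and it was -0.023 on the other type (all probe sets 0.025). Higher to any extent were 31 of 46 members of the first type, against 48.9% of all, and 5 of 11 of the MB type, against 52.5%. By gene over both types, as the median of its measured probe sets, 24 of 43 member genes were higher and 19 lower. With a 1.5-fold limit 7 were higher and 2 lower of the first type, against 12.4% and 10.7% of all, and 2 higher and 1 lower of the MB type, against 17.6% and 12.9%. Above the control floor 0 of 44 and 0 of 9 passed 2-fold in either direction, against 1.88% higher and 1.29% lower on the first type and 1.97% and 0.767% on the MB type. The spread of a probe set is a robust SD, from the median absolute deviation, of the log2 changes of 200 probe sets of like level. It was exceeded by 17 of 46 members of the first type, against 32.4% of all, and by 4 of 11 of the MB type, against 33.1%, so passing it is common. The MB median changed sign with quantile normalization, with a lower floor, with the brightest probe set per gene and with plain probe sets.

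Class medians lay on both sides of 0 on the first type. SR probe sets had a median of 0.49 and hnRNP probe sets one of 0.13, while the snRNP median was -0.34, the U2-associated median 0.11 and the Prpf median -0.016. Under the alternative settings that gave a value the SR median ranged from 0.49 to 0.54 and the hnRNP median from 0.082 to 0.14. The snRNP median ranged from -0.39 to -0.20 and the U2-associated median from 0.072 to 0.16, so each of these kept its sign on this type. The Prpf median, from -0.18 to 0.15, did not. Over genes of both types the U2-associated median was -0.023, with 3 genes higher and 4 lower. The difference between classes was not tested, since each is read from 1 pair of arrays.

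**Figure D2:**
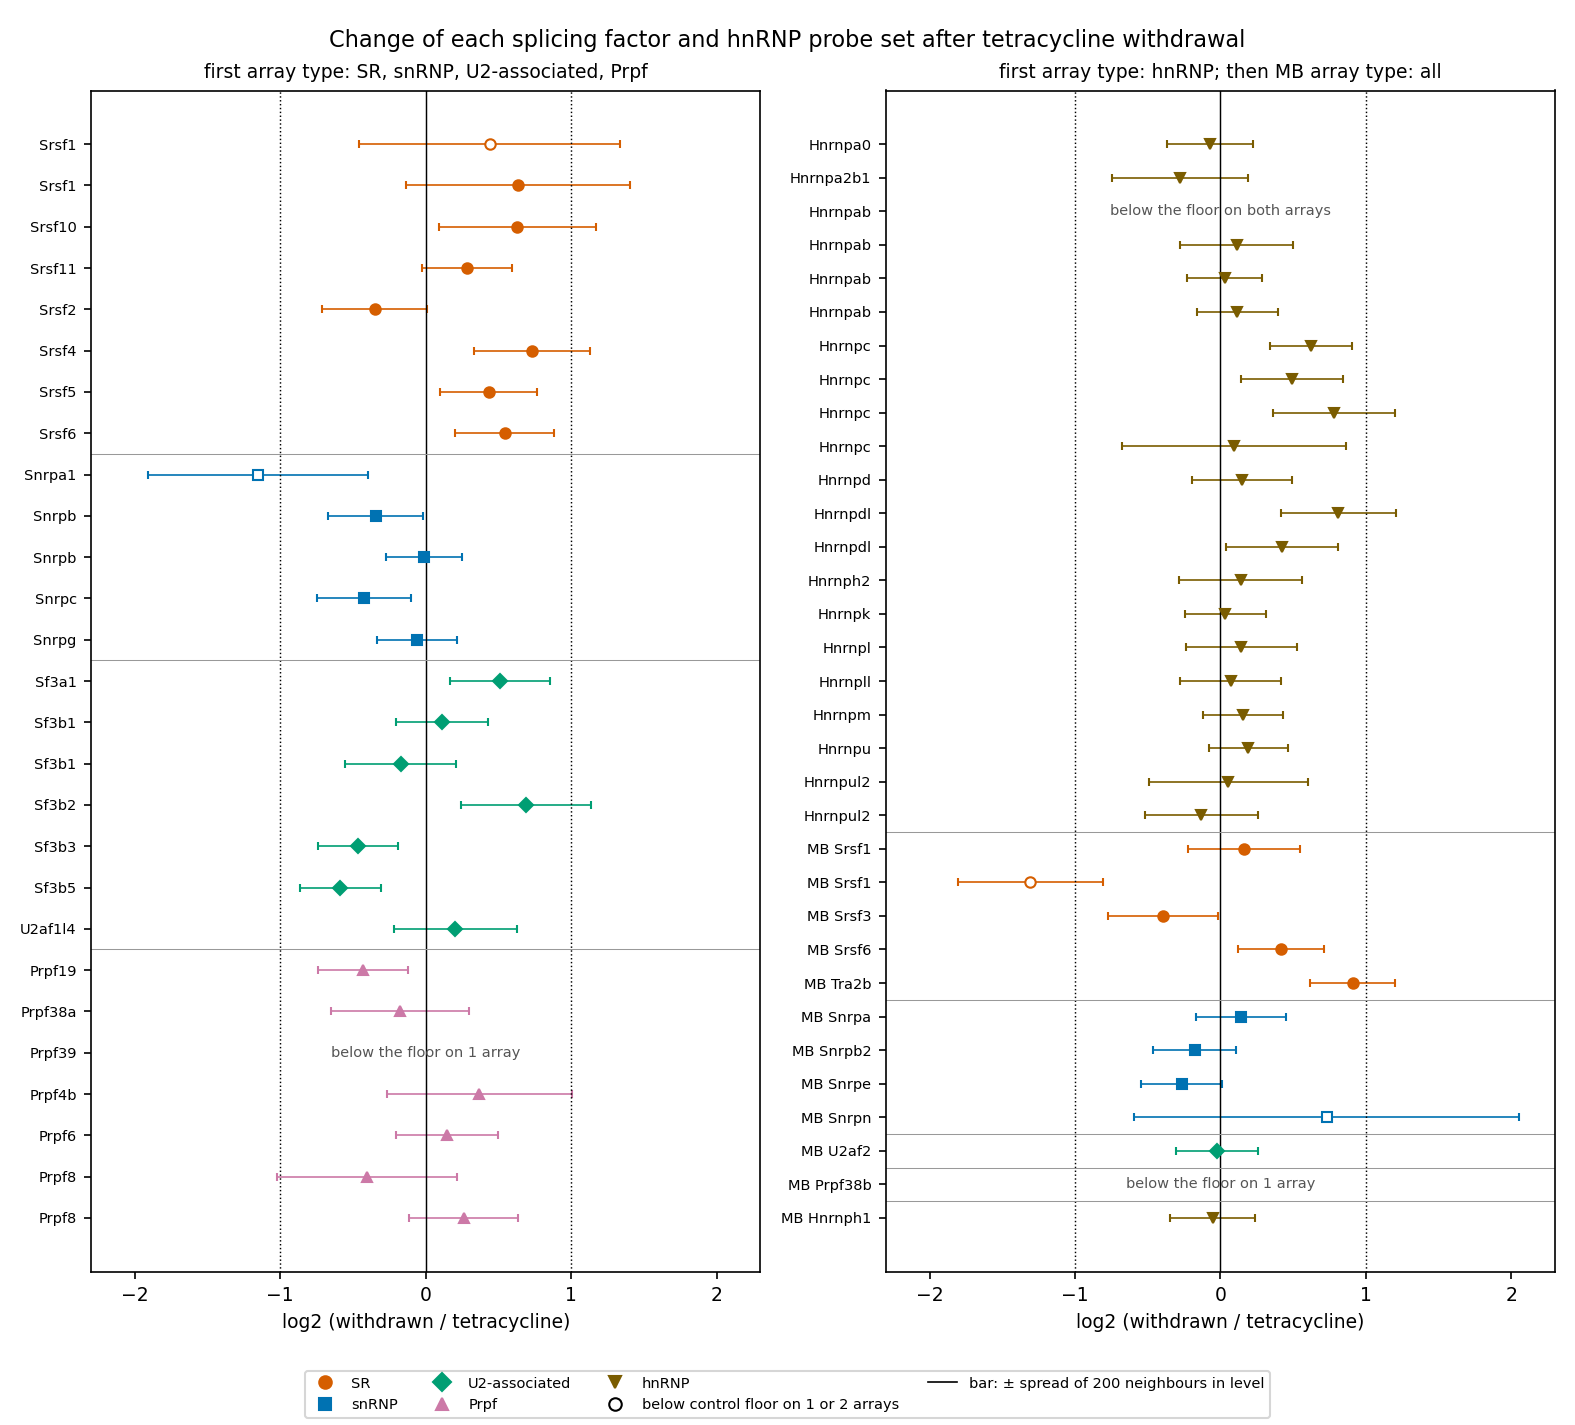
Change of each of the 60 probe sets as log2 of withdrawn over tetracycline intensity (x axis), by class and array type, with gene symbols on the y axis. Bars are the spread, a robust SD taken over 200 probe sets of like level, and are no replicate error. Open symbols mark probe sets under the control floor on 1 or 2 arrays. On the first type 7 of 8 SR probe sets lie right of 0 and 5 of 5 snRNP probe sets left of it (4 of 5 under quantile normalization).

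SR genes were mostly higher after withdrawal on the first type. Of 8 probe sets 7 were higher, against 48.9% of all, and 3 by at least 1.5-fold, against 12.4%. None reached 2-fold. Srsf4, which encodes an SR protein with a long arginine-serine domain, read 862.8 with tetracycline and 1429.8 after withdrawal, a change of 0.73. The spread at its level was 0.40. Being taken over different probe sets, it is not an error between replicates. Srsf6 read 1310.6 and 1910.1 (0.54, spread 0.34), and its probe set on the MB type read 3025 and 4034.8 (0.42, spread 0.29). Srsf6 was thus higher by more than the spread on both array types.

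Srsf5, first known as an insulin-induced gene, read 1233.6 and 1665.4 (0.43, spread 0.33). Srsf10, an SR protein that represses splicing when dephosphorylated, was dimmer at 346.8 and 537.2 (0.63, spread 0.54). Srsf11 read 2626.8 and 3198.4 (0.28), inside its spread of 0.31. The exception on the first type was Srsf2, the SC35 protein of nuclear speckles, with 2719.6 and 2132 (-0.35, spread 0.36).

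On the MB type SR genes went both ways, with 3 of 5 probe sets higher, near the 52.5% of all, and a median of 0.16, positive under the alternatives run (0.010 to 0.29). Tra2b, which encodes a sequence-specific activator of exons that is related to the SR proteins, read 2513.3 with tetracycline and 4721.2 after withdrawal. This 1.88-fold difference (0.91, spread 0.29) was the largest upward one among the members above the control floor. Srsf3, the smallest classical SR protein and also an mRNA export adaptor, went the other way with 1172.6 and 891.8 (-0.39, spread 0.38).

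Srsf1, the founding SR protein also known as ASF/SF2, gave the least uniform readings. On the first type its probe sets read 208.5 and 282.7 (0.44) and 297.8 and 462 (0.63), both inside spreads of 0.90 and 0.77 at these low levels, the former below the control floor with tetracycline. On the MB type a plain probe set read 1192.3 and 1334.6 (0.16). Its companion with the ending _g_at, which is named for the same sequence, read 815.4 and 329.6 (-1.31, spread 0.50). The latter is the MB member at least 2-fold lower, and its lower value lay under the control floor of 340.4. Against that floor it is at least 2.40-fold lower. The 4 Srsf1 probe sets therefore do not give 1 direction.

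Genes named Snrp were lower on the first type in 5 of 5 probe sets, of 4 genes, against 51.1% of all. This was 4 of 5 once the arrays were quantile normalized or the trend with level was taken out. Genes of the Snrnp and tri-snRNP list below, which the rule did not match, went both ways. Over both types 6 of their 11 measured probe sets were higher, against 48.9% (first type) and 52.5% (MB type) of all. Snrpa1, the U2 A' protein, read 522.1 and 235.2 (-1.15, spread 0.76), and with the second value below the control floor the bound is at least 1.85-fold lower. Snrpc, the U1 C protein that contacts the 5' splice site, read 3042.4 and 2268.8 (-0.42, spread 0.32). Snrpb, which encodes Sm B, was lower by 0.34 on the log2 scale in 1 probe set (2820.9 and 2221.7, spread 0.33) and nearly level in the brighter one (13393.8 and 13275.8, -0.013). Snrpg, Sm G, was nearly level as well, with 5261.1 and 5053.3 (-0.058, spread 0.27). Snrpa1, Snrpc and the dimmer Snrpb probe set exceeded their spread, 3 of 5 against 32.4% of all. The brighter Snrpb probe set was the one that turned positive, at 0.11 and 0.096 under those alternatives.

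Of the 4 MB snRNP probe sets 2 were lower, against 47.5% of all, and none of the 4 exceeded its spread. Snrpe, Sm E, read 10011.7 and 8326 (-0.27, spread 0.28), and Snrpb2, the U2 B'' protein, read 2374.1 and 2102.7 (-0.18). Snrpa, the U1 A protein, read 5016 and 5531.5 (0.14). Snrpn, an imprinted gene best known from neurons whose protein resembles Sm B, was below the control floor on both arrays with 188 and 312.4 (0.73, spread 1.32). The MB median of -0.017 changed sign when the arrays were quantile normalized or the trend with level was taken out. Grouped by role over both types, probe sets of the Sm ring genes (Snrpb, Snrpe, Snrpg, Snrpn) were lower in 4 of 5 cases and those of the U1 and U2 proteins (Snrpa, Snrpa1, Snrpb2, Snrpc) in 3 of 4, against 51.1% (first type) and 47.5% (MB type) of all. This grouping was made after the values were seen, and the brighter Snrpb probe set is 1 of the 4 lower Sm ring values. Snrnp70, which the rule did not match, is not counted here and gave -0.14 and 0.0096 on the MB type.

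U2-associated factors were split. Sf3a1, the SF3a subunit that contacts other parts of the spliceosome, read 1343.6 and 1914.8 (0.51, spread 0.35). Sf3b2, an SF3b subunit, read 606 and 977.5 (0.69, spread 0.45). A further pair of subunits of the same SF3b complex were lower: Sf3b3 with 5035.8 and 3651.7 (-0.46, spread 0.28) and the small Sf3b5 with 4700.9 and 3129.6 (-0.59, spread 0.28). The Sf3b5 value was the largest downward difference among the members above the control floor on both arrays. These 4 of 7 probe sets exceeded their spread, against 32.4% of all, with 2 in each direction.

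The other U2-associated probe sets stayed inside their spread. Sf3b1, the branch-point clamping subunit, gave 2832.2 and 3056 (0.11) and 1362.6 and 1209.6 (-0.17) on 2 probe sets. U2af1l4, a paralogue of the small U2AF subunit, read 731.3 and 842 (0.20). U2af2, the large subunit that binds the polypyrimidine tract, read 2181 and 2147.2 on the MB type (-0.023).

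Prpf genes had 3 probe sets higher and 3 lower on the first type. Prpf19, the ubiquitin ligase of the complex that activates the spliceosome, read 3902.8 and 2898.6 (-0.43, spread 0.31), the only Prpf probe set outside its spread among the 6 above the floor on both arrays. Prpf8, the protein at the catalytic centre, gave 597.5 and 451.8 (-0.40, spread 0.62) on its plain probe set and 1963 and 2353 (0.26, spread 0.37) on the _g_at companion. Prpf4b, a kinase of the spliceosome, read 463.4 and 598 (0.37, spread 0.64). Prpf6, a scaffold of the tri-snRNP, read 1501.7 and 1661.2 (0.15), and Prpf38a, which joins before the spliceosome is activated, 992.3 and 876.9 (-0.18). The class median of -0.016 became 0.15 with the brightest probe set per gene and -0.18 with a lower floor.

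In 2 Prpf genes 1 array was below the floor, which gives bounds only. Prpf38b read 43.7 with tetracycline and 493.6 after withdrawal on the MB type. Its bound was at least 6.17-fold higher against the main floor and 1.45-fold against the control floor. Prpf39, a U1-associated protein, read 195.7 and 75.8 on the first type, a bound of at least 1.51-fold lower against the main floor. Prpf39 was below the control floor on both arrays, so no fold is given against that.

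Probe sets of hnRNP genes were higher to any extent in 17 of 20 measured on the first type, against 48.9% of all, though mostly by little. Some genes hold several of these, and by gene over both types 10 of 14 were higher and 4 lower. At least 1.5-fold higher were 3 of the 20 probe sets, near the 12.4% of all, and 5 of 20 exceeded their spread, against 32.4% of all. These 5 belonged to 2 genes. Hnrnpdl, whose protein resembles hnRNP D, read 606.4 and 1064.8 (0.81, spread 0.40) and 719 and 963.8 (0.42, spread 0.39) on 2 probe sets. Hnrnpc, which encodes a core protein that binds uridine tracts, read 808.9 and 1390.3 (0.78, spread 0.42), 1614.6 and 2272.6 (0.49, spread 0.35), and 4942 and 7619.3 (0.62, spread 0.28) on 3 probe sets with the ending _f_at, which marks probes shared by a sequence family. Its plain probe set was dim, with 349.4 and 372.9 (0.094, spread 0.77). All first-type _f_at probe sets together had a median of -0.15. A probe set sharing its accession with an Hnrnpc probe set was annotated to Hnrnpc and a second gene. Whether the Hnrnpc values hold signal of near-identical copies was not tested.

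The remaining hnRNP genes were near level. Hnrnpab, a relative of hnRNP D, gave 0.031, 0.11 and 0.12 on 3 measured probe sets, the brightest at 9834.4 and 10660.2, while another was below the floor on both arrays (20.8 and 22.2). Abundant signals came from Hnrnpa0 (8242.4 and 7854.2, -0.070), Hnrnpk, a poly(C)-binding protein (5136.4 and 5258.1, 0.034), Hnrnpm (4770.9 and 5311.1, 0.15) and Hnrnpu, a chromatin scaffold protein (4087.9 and 4671.8, 0.19). Hnrnpd, which binds AU-rich elements and is also called AUF1, read 1530.3 and 1698 (0.15). None of these exceeded its spread.

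Hnrnpl and Hnrnpll, which are paralogues binding CA-rich sequence, read 2045.1 and 2261.8 (0.15) and 2242.2 and 2354.6 (0.071). Hnrnph2 read 705 and 777.7 (0.14), and its paralogue Hnrnph1, on the MB type, 4103 and 3959.6 (-0.051). Hnrnpul2 gave 0.056 and -0.13 on a pair of probe sets. Hnrnpa2b1 had the lowest value of the class, 793.4 and 654.5 (-0.28), inside its spread of 0.47.

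Probe sets of a gene were compared with each other. They differ in sequence and some in array type, so their range is not measurement error alone. In 9 member genes at least 2 probe sets were measured. They had 1 direction in 5 genes (Hnrnpab, Hnrnpc, Hnrnpdl, Snrpb and Srsf6) and opposite directions in 4 (Hnrnpul2, Prpf8, Sf3b1 and Srsf1). Over all 745 genes with several measured probe sets, 54.5% had 1 direction. The median range between probe sets of a gene was 0.33 for the members and 0.38 for all such genes. Many differences above are no larger than this.

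**Figure D3:**
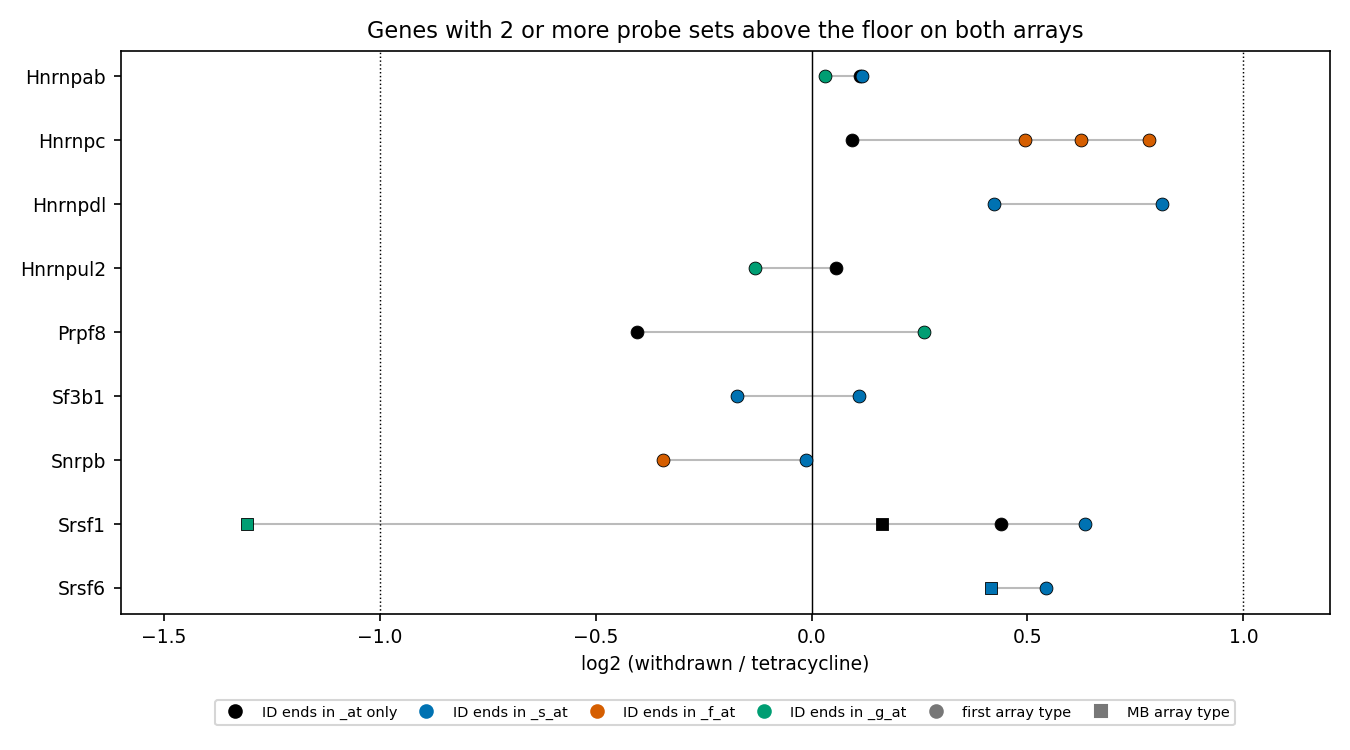
Change of each measured probe set (x axis, log2 of withdrawn over tetracycline) for the 9 member genes with at least 2 of them (y axis). Colour gives the ending of the probe set name, circles the first and squares the MB array type, and dotted lines 2-fold differences. The Srsf1 probe sets span 1.94 on the log2 scale, and the 3 Hnrnpc probe sets of a family lie right of the plain one.

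Other splicing genes were read from 7 further lists, which gave 100 measured probe sets of 72 genes. On the first type 52 of 80 were higher to any extent, against 48.9% of all, with a median of 0.13. At least 2-fold higher were 4, close to the 4.36% of all, and 1 was lower, against 4.02%. Of 20 on the MB type 12 were higher, against 52.5% of all, with a median of 0.11. Past 2-fold there were 0 in either direction, against 8.46% higher and 6.65% lower of all. Above the control floor the 2-fold counts on the first type were 2 higher of 69, against 1.88% of all, and 0 lower, against 1.29%. These 2 were Luc7l, a U1-associated factor, with 3295.7 and 7496 (1.19, spread 0.27), and Rbm39, an SR-related factor that resembles U2AF, with 1187.4 and 2979.9 (1.33, spread 0.33). Other Rbm39 probe sets gave 0.29 (first type) and 0.20 (MB type).

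Of the further genes past 2-fold, each below the control floor on 1 array, Slu7, a second-step factor, gave 1.47 and 0.90 on 2 probe sets. Celf1, a regulator binding GU-rich sequence, gave 1.06 (first type) and -0.34 (MB type). Ddx41, a helicase, was lower with 586.4 and 194.2 (-1.59). Of 9 further probe sets above the floor on 1 array only, 3 had a bound of at least 2-fold against the main floor and 0 against the control floor. Ptbp1, the polypyrimidine tract binding protein, read 71.4 and 487.5 on the MB type, at least 6.09-fold higher against the main floor and 1.43-fold against the control floor. Esrp1, an epithelial regulator, read 78.6 and 408.4 (at least 3.15-fold and 1.45-fold higher), and Bcas2, of the Prp19 complex, 307 and 78.8 (at least 2.37-fold and 1.09-fold lower). SR kinases and SR-related genes had a median of 0.26 over 15 probe sets of both types, 10 of them higher (48.9% and 52.5% of all), with Luc7l highest and Luc7l2 lowest (-0.34). Of the SR kinase genes, Clk1 gave 0.40 (first type, spread 0.46) and 0.72 (MB type, spread 0.42), both on _f_at probe sets. Clk3 gave -0.28 and 0.097 and Clk4 0.26, all on the first type and inside their spread. The coactivator Srrm1 gave 0.74 (first type) and -0.18 (MB type).

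Exon junction and export genes had a median of 0.35 over 6 probe sets, from -0.11 for Alyref to 0.68 for Upf2. Helicases had a median of 0.20 over 9 probe sets, from Ddx41 to Aqr (0.44). Prp19 complex and step factors had one of 0.13 over 21, with Slu7 highest and Crnkl1 lowest (-0.76, and 0.16 on its other probe set). Other splicing regulators also had 0.13 over 30, from -0.80 for Khdrbs1 to Rbm39. LSm and snRNP assembly genes (0.075 over 8, from -0.52 for Coil to 0.43 for Lsm4) and tri-snRNP and Snrnp genes (0.0096 over 11, from -0.56 for Eftud2 to 0.24 for Snrnp27) lay nearest to 0. The Coil value was inside its spread of 0.78, and the other Coil probe set gave 0.13. No list was tested against the other genes.

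**Figure D4:**
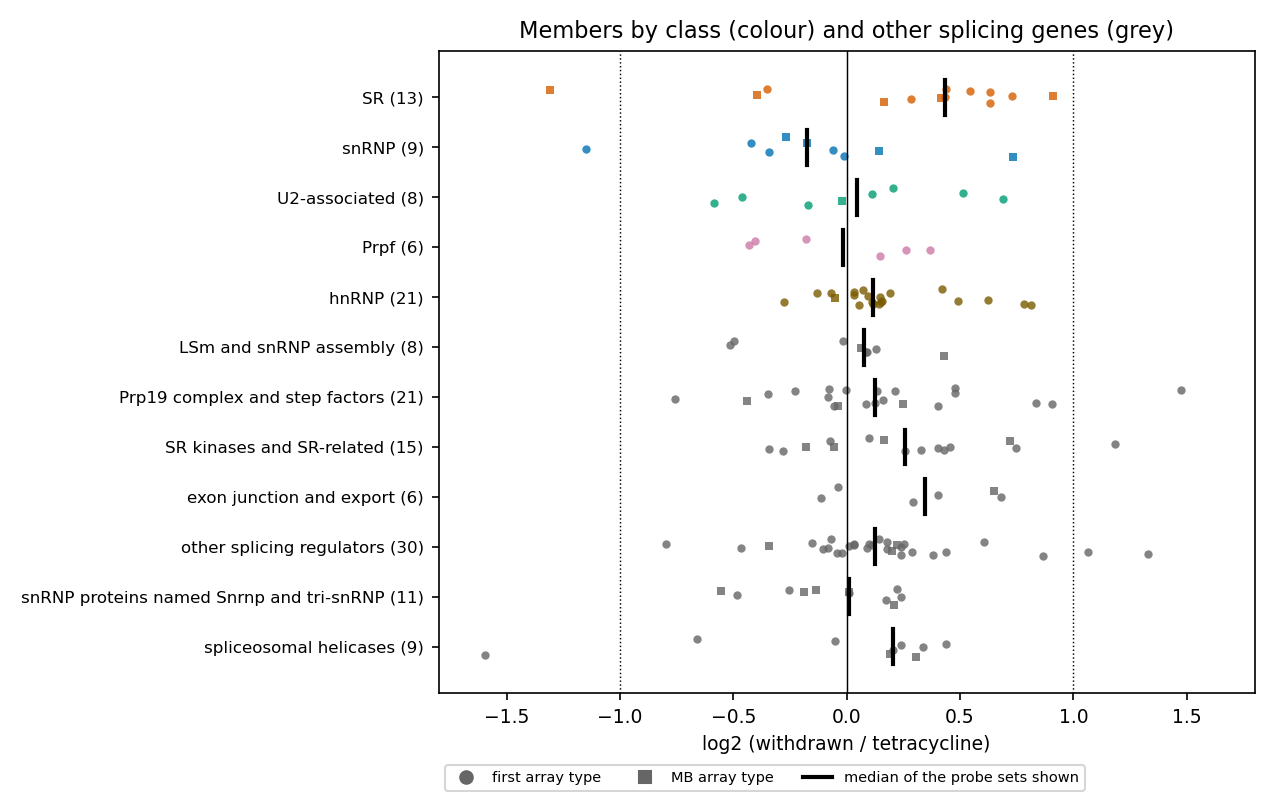
Change of each measured probe set (x axis, log2 of withdrawn over tetracycline) by class for the members (colour) and by list for other splicing genes (grey), with the number of probe sets in parentheses. Circles are the first and squares the MB array type, black bars the median of the probe sets shown over both types, and vertical scatter within a row has no meaning. The SR median is 0.43 over 13 probe sets and the snRNP median -0.18 over 9.

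**Figure D5:**
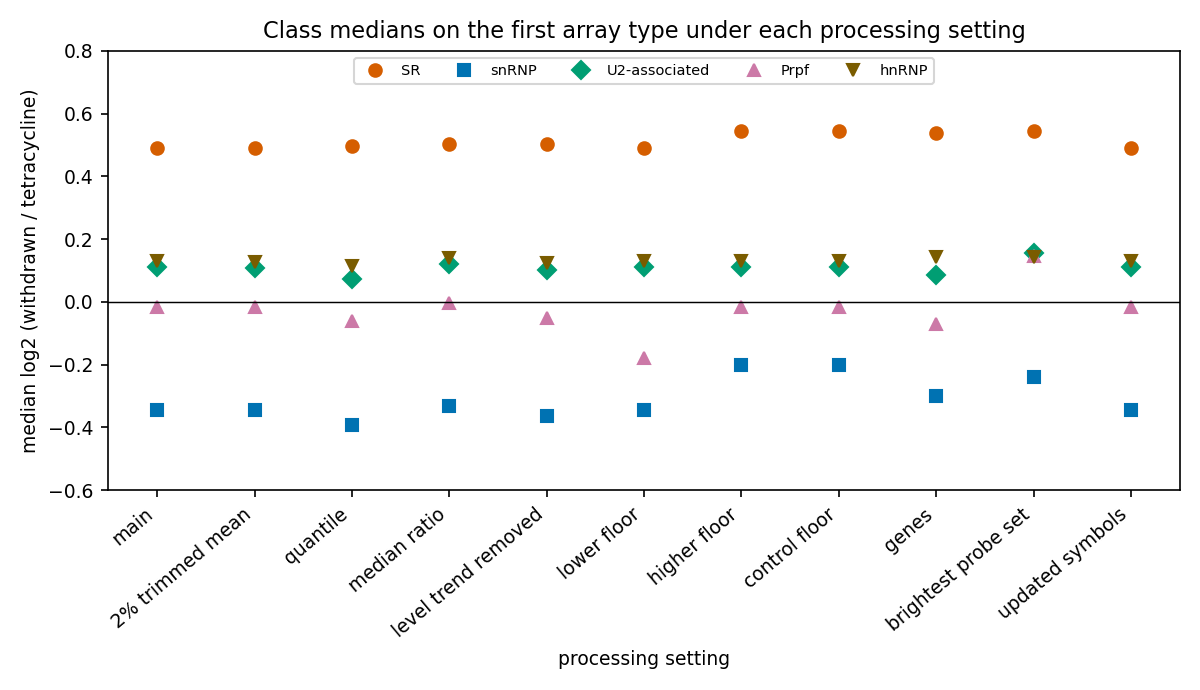
Median change (y axis, log2 of withdrawn over tetracycline) of each class on the first array type under the main setting and 10 alternatives (x axis). SR lies at 0.49 to 0.54 and snRNP at -0.39 to -0.20 throughout, while Prpf lies on both sides of 0.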

How the data were processed

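Gene expression was read from deposited tables of 1 linear intensity per probe set and array for 4 arrays. No header or label names the software or any scaling, and these steps are not stated there. The 2% trimmed means of the 2 arrays of a type lay within 5% of each other, so the deposited intensities were used unscaled. Symbols came from the platform annotation, and 45 of 45 member genes matched RefSeq (GRCm38.p6) by Entrez identifier. The change is log2 of withdrawn over tetracycline intensity with no pseudocount. A difference was counted at 2-fold between values both above the floor, and a value under a floor on 1 array gave a bound. The number of arrays limits the precision. Simulated arrays served to check that the median of known upward changes, placed well above the floor, was recovered. Counts were not checked in this way, and downward changes and changes near the floor were not simulated. The members, classes, lists and alternatives (scalings, floors, fold limits, genes, brightest or plain probe sets, updated symbols) were chosen with earlier results of these data known. Values are named for every member, and of other splicing genes for those past 2-fold, bounds included, and the extremes of each list. Snrnp70, Srrm1, Clk1, Clk3 and Clk4 are named as well, outside this rule. The tools were matplotlib 3.10.9, statsmodels 0.14.6, scipy 1.17.1, pandas 2.3.3 and numpy 2.4.6 under Python 3.11.15.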

Additional observations from a re-analysis of the deposited data

How the results depend on the processing

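No paired analysis was possible because there is 1 array per condition and type, and no replicate could be left out. For the single probe sets, 393 of 393 values under the alternatives moved by less than the spread at their level. Part of this was fixed in advance, since a floor leaves the value of a probe set unchanged and only the scalings could move it. Of 57 probe sets 3 changed sign, from changes of at most 0.070 in size: Snrpb (0.11 with quantile normalization, 0.096 without the level trend), Hnrnph1 (0.016 with quantile normalization) and Hnrnpa0 (0.0027 without the level trend). Of 93 class and member medians under alternatives, 78 moved by at most 0.1 on the log2 scale, 8 moved by more and 7 changed sign. The MB member median was 0.016 with quantile normalization, 0.059 with the lower floor and with the brightest probe set per gene, and 0.16 with plain probe sets, of which there was 1. The MB snRNP median was 0.015 with quantile normalization, 0.0044 with the level trend removed and -0.18 at the control floor. The MB SR median was 0.29 at the control floor and with the brightest probe set, and 0.010 over genes. On the first type the snRNP median was -0.20 at the higher and control floors and -0.24 with the brightest probe set, and the Prpf median was -0.18 at the lower floor and 0.15 with the brightest probe set. The first-type count at least 2-fold lower, 1 in the main setting, was 2 at the lower floor and with a 1.5-fold limit, and 0 at the higher and control floors and with a 3-fold limit. The MB count lower, also 1, was 0 at the control floor, over genes, with the brightest or plain probe sets and with a 3-fold limit. The MB count higher, 0 in the main setting, was 1 at the lower floor and 2 with a 1.5-fold limit, and the first-type count higher, also 0, was 7 with a 1.5-fold limit. Updated symbols changed no member. Plain probe sets left too few members for the other class medians. Across all probe sets no scaling moved the median by over 0.1. Of all MB probe sets measured, 369 were at least 2-fold higher and 290 lower as deposited. With quantile normalization these counts were 320 and 333, and with the level trend removed 321 and 335. Which direction held more MB probe sets thus depended on the scaling. Signal near background limits Prpf38b, Prpf39, Snrpn, Snrpa1 and the dim Srsf1 probe sets. The causes were not tested.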
